A study of Mus musculus with 4 samples.

Results

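The contact map of the H19 ICR in embryoid bodies was read from the 2 EB arrays of a series of 4, chosen by their label of 12 days of differentiation. Embryoid bodies (EB) are the aggregates that form when embryonic stem (ES) cells differentiate in culture. The study names the mouse ES line R1, and the labels name no cell types within the embryoid bodies. Each EB replicate was a pool of 3 independent samples. Cy5 marked the amplified 4C material on every array, and Cy3 marked genomic DNA cut with MboI, called input below; dyes were not swapped. The 2 arrays of undifferentiated R1 cells, treated alike, entered only the estimate of spread in 1 test and a few values given for orientation. All map values are those of 388069 tiling probes in build mm6 coordinates, and locations were put on the array because an earlier screen of pooled neonatal liver, neonatal brain, ES and EB material had picked them, so that the map shows only preselected places.

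Circular chromosome conformation capture (4C) ligates fragments that lie close together in the nucleus and amplifies, from a chosen bait, whatever was joined to it. The H19 ICR is the imprinting control region between Igf2, a fetal growth factor gene expressed from the paternal copy, and H19, a noncoding RNA gene expressed from the maternal copy. On the maternal copy the ICR is bound by the insulator protein CTCF, and on the paternal copy it is methylated. It lies on distal chromosome 7, in a neighbourhood with many further imprinted genes. Contacts on the same chromosome are called cis and contacts with other chromosomes trans. An annotation of build mm6 was not used here, so contacts are named by position and not by gene, and no source used here states the exact place of the bait.

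Most of the array carried no 4C signal in embryoid bodies. The median 4C intensity of the tiling probes was 543 on EB replicate 1 and 1638 on EB replicate 2, against 534 and 1607 for the random control probes. Signal is therefore given below as log2 units over each array's tiling median, and a probe was called positive at 1 log2 unit (2-fold). The scanner's upper limit lay 6.92 log2 units over the median on replicate 1 and 5.32 on replicate 2, so that brighter signal cannot be ranked. Of the 1193 random control probes, 1 and 12 were positive on the EB arrays and 0 on both. Precision rests on only 2 EB arrays, and 2 replicates cannot give an exact permutation p under 0.05.

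On this array, contacts of the H19 ICR in embryoid bodies appeared as short, bright runs on an otherwise flat map. A run was 3 or more positive probes in a row, no gap exceeding 300 bp, and a site was such a run of probes positive on both EB arrays. There were 38 sites, of which 14 lay near the bait (in the distal tiled region of chromosome 7), 1 elsewhere on chromosome 7 (far cis) and 23 in trans. They held 301, 5 and 113 probes. In 33 of the sites the mean log2 ratio of 4C to input, centred on the array median, was also at least 1 on both arrays. This demand on the ratio was chosen with the data in view. The ratio-supported sites comprised 12 near the bait, 1 in far cis and 20 on 12 other chromosomes. Site length ran from 150 to 4623 bp with a median of 450 bp. Where no other probe lay within 300 bp, the layout of the array and not the signal set where a site ended. The first and last probes were identical on both arrays in 27 of the 38 sites. Sites with no probe within 300 bp outside them could not differ in this, so the count does not measure agreement between arrays. Of the 33 ratio-supported sites, 17 had a probe within 300 bp. Where a probe lay within 300 bp outside a ratio-supported site near the bait, its median 4C signal was 0.21 on replicate 1 and 0.31 on replicate 2, so that most edges there were sharp; the highest such flank, 1.35 on replicate 1, adjoined the longest site. Only 5 of the 20 ratio-supported trans sites had a probe that close, with flank medians of 0.997 and 0.765. Neighbouring sites on chromosome 14, starting at 92417482 and 92418404, shared 1 such probe, with 0.997 on replicate 1 and 1.95 on replicate 2.

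Near-bait signal held most of the run probes, although the class made up a small part of the array. Of the 27641 near-bait probes, 1.10% lay in runs on replicate 1 and 1.16% on replicate 2 (mean 1.13% ± 0.049, SD, n = 2). For far cis the shares were 0.0149% and 0.0204% of 53851 probes, and for trans 0.0398% and 0.0502% of 306577 probes. Both arrays thus gave the same order, with trans above far cis and both far below the near-bait share. Of all run probes, 71.8% and 68.4% lay on chromosome 7. The classes differ in how their probes were chosen and spaced, and the shares compare places on this array, not contact frequencies of chromosomes.

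**Figure D1:**
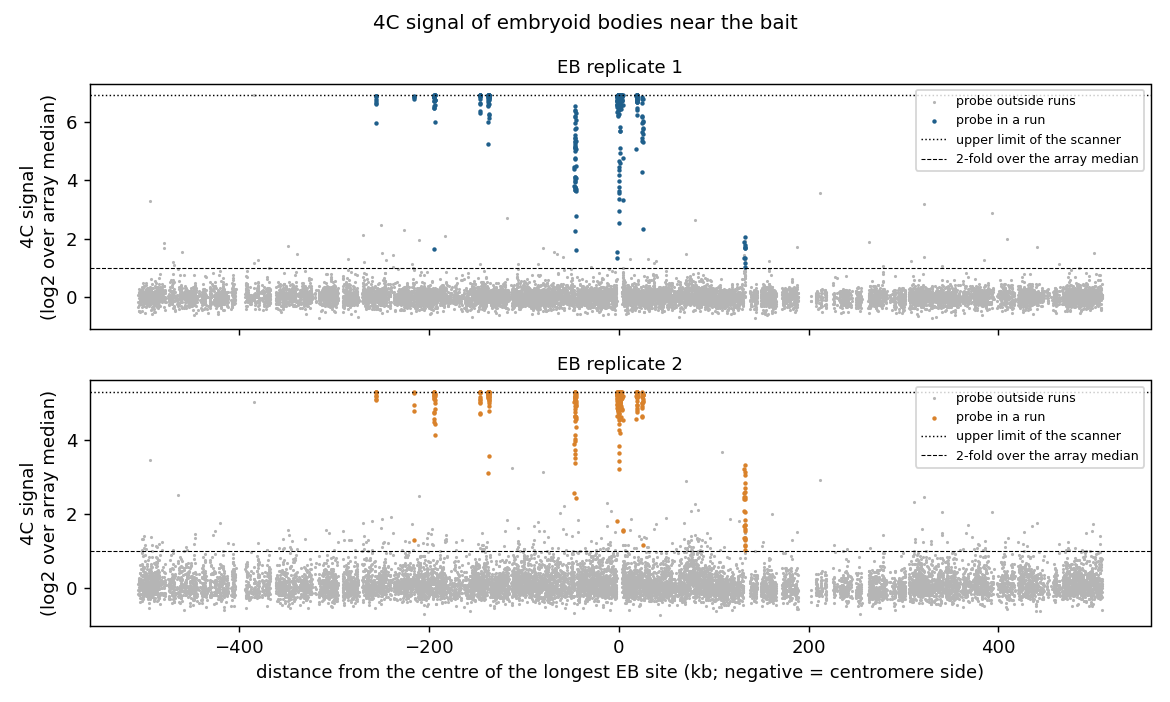
4C signal of each probe (y axis, log2 units over the array median) against its distance in kb from the centre of the longest EB site (x axis), for EB replicate 1 (top) and EB replicate 2 (bottom). Coloured points are probes in runs and grey points all others; the dotted line is the scanner's upper limit and the dashed line the 2-fold level. Narrow bright columns stand between -256 and 24.7 kb, with a dimmer pair at 132 kb.

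The longest site served as the origin of all distances. It covered chromosome 7 from 136992945 to 136997567 with 115 probes and had a mean 4C signal of 6.34 log2 units on replicate 1 and 5.0 on replicate 2. On the respective arrays 97 and 108 of its probes were within 2-fold of the scanner's limit, so that its true height is not known. Whether it contains the bait itself cannot be told from the files. A gap of 347 bp separated it from a site of 6 probes starting at 136997915, with 6.80 and 5.08. After a further 725 bp came a site of 4 probes starting at 136998978, with 5.39 and 3.21. These 3 sites within 5 kb held 126 and 125 run probes on the respective arrays, or 41.6% and 38.8% of all near-bait run probes.

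On the telomere side (higher coordinates) the next contacts stood close to the origin. A site of 24 probes at 18.7 kb, starting at 137013534, had 6.69 and 5.13 log2 units of 4C signal. A site of 18 probes at 24.7 kb, starting at 137019571, had 5.72 and 4.86. Both were bright on both arrays and began and ended at the same probes. Then followed 107066 bp without a site. A pair of weak sites at 132 kb, of 4 and 6 probes, starting at 137127355 and 137127547, had means of 1.75 and 1.46 on replicate 1 and 2.91 and 2.45 on replicate 2. Their log2 ratios of 4C to input were 0.83 and 0.095 on replicate 1 against 2.52 and 1.51 on replicate 2, so that the ratio supported them on replicate 2 alone. They were also the near-bait sites with no probe near the upper limit on either array.

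On the centromere side (lower coordinates) contacts reached farther out. A site of 45 probes at -46.0 kb, starting at 136948151, was the second longest of the map. It had 4.74 log2 units on replicate 1 and 4.68 on replicate 2, and 8 of its probes on replicate 1 and 35 on replicate 2 lay near the upper limit. On replicate 1 most of it could therefore be measured below saturation, unlike the longest site.

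A cluster of 3 sites lay between -147 and -137 kb. The site starting at 136848367 (13 probes) had 6.76 and 5.14, that starting at 136856609 (12 probes) had 6.59 and 5.08, and that starting at 136857649 (20 probes) had 6.75 and 5.10. The last pair was separated by 418 bp. All 3 were close to the upper limit on both arrays, each with at least 11 probes within 2-fold of it.

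The outermost contacts of the neighbourhood stood at -195, -216 and -256 kb. The site at -195 kb started at 136799951 and had 22 probes, with 6.73 and 5.01 log2 units. That at -216 kb started at 136778683 and had 4 probes, with 6.84 and 5.10. That at -256 kb started at 136739067 and had 8 probes, with 6.66 and 5.23. Nearly all probes of these 3 sites were within 2-fold of the upper limit on both arrays, so that whether height changed with distance could not be measured. The share of probes in runs could be compared across distances.

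Within 5 kb of the origin 55.5% of the probes on replicate 1 and 55.1% on replicate 2 lay in runs. The origin is the centre of the longest site, whose 115 probes are among the 227 counted here. A high share at the centre thus follows from the choice of origin. From 5 to 300 kb the share was 2.86% on the centromere side on both arrays, and 1.41% and 1.88% on the telomere side. The centromere side held 7 sites in this range and the telomere side 4. Farther than 300 kb no site was found on either side. The array continued to 507 kb on the centromere side and to 1661 kb on the telomere side, where 17353 probes beyond 300 kb held 0 run probes on replicate 1 and 3 on replicate 2. Those 3 probes, at 922 kb, had 1.69 log2 units on replicate 2 and 0.54 on replicate 1. Bins between the sites were empty on both arrays, among them 5 to 25 kb and 50 to 100 kb on the centromere side and 50 to 100 kb on the telomere side, with 416, 787 and 856 probes.

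**Figure D2:**
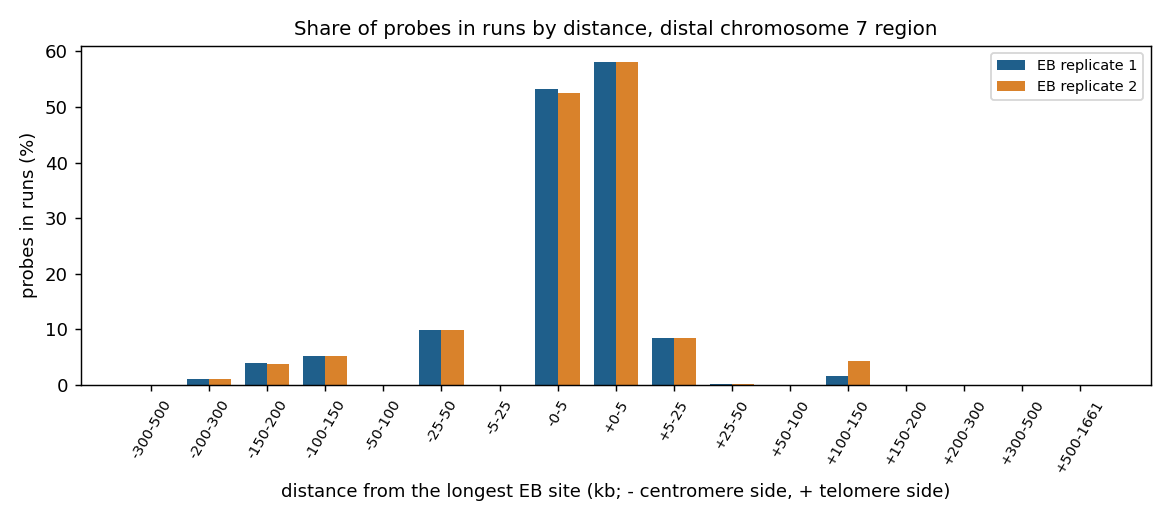
Share of probes in runs (y axis, percent) in bins of distance from the longest EB site (x axis, kb), with 1 bar per EB array; the outermost centromere bin, of 95 probes and with no run, is left out. The shares of both arrays lie close together in every bin but 100 to 150 kb on the telomere side, where they were 1.57% and 4.24%.

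For orientation, 8 of the 12 ratio-supported near-bait sites also had means of at least 1 log2 unit on both arrays of undifferentiated cells, and 0 of the 20 trans sites did. Of all tiling probes, 1.53% were positive on ES replicate 1 and 2.09% on ES replicate 2. The sites were chosen on the EB arrays alone, so these counts cannot show which contacts are particular to embryoid bodies. No test against the undifferentiated cells was made, and embryoid bodies and ES cells were not otherwise compared.

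Far cis held 1 site and 3 positive loci among 130. The site, on chromosome 7 from 115998055 to 115998851 (5 probes), lay at -21 Mb from the origin, with a 4C signal of 6.36 log2 units on replicate 1 and 5.27 on replicate 2 and ratios of 5.31 and 5.35. Places represented by fewer than 3 probes cannot form a run. Probes without a region label were therefore also joined into loci, with gaps of at most 500 bp, and a locus was called positive when its median 4C signal and median log2 ratio were at least 1 on both EB arrays. This rule was chosen after the data had been seen. It gave 3 positive loci among 130 in far cis (2.31%), against 2.25% of the trans loci. The classes differ in locus size, and the shares at equal size were not alike. With 1 probe, 3.08% of 65 far cis loci and 1.26% of 1992 trans loci were positive. With 2 probes these were 0 of 18 and 7.14% of 84, and with 3 or more 2.13% of 47 and 10.7% of 187. The 3 far cis loci lay on the centromere side, as do all other labelled regions of chromosome 7. How many far cis loci the array had on the telomere side was not counted. Beside the site, these were a probe at 115026819 (-22 Mb, 6.70 and 5.26) and a probe at 77109903 (-59.9 Mb, 6.57 and 4.94). The large tiled regions elsewhere on chromosome 7 contributed no site.

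Trans contacts were found on 12 chromosomes, and every ratio-supported trans site fell on probes without a region label. The longest lay on chromosome 17 from 47361542 to 47363191 with 17 probes, and had 5.66 log2 units on replicate 1 and 4.83 on replicate 2. On the same chromosome, sites of 5 probes at 47032193 and of 4 probes at 41941045 had 6.50 and 5.24, and 6.72 and 5.17. Chromosome 17 thus held 3 of the 20 sites.

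Chromosome 14 had a site of 7 probes at 82391871 close to the limit on both arrays (6.86 and 5.06). It also had a weaker neighbouring pair at 92417482 and 92418404, of 8 and 7 probes, with 3.94 and 3.0 on replicate 1 and 4.40 and 3.80 on replicate 2. Only 1 probe, with 0.997 on replicate 1 and 1.95 on replicate 2, separated the pair. Counted as 2 sites here, the place was 1 locus of 16 probes when probes were joined into loci. None of the 15 probes of that pair was near the upper limit on replicate 1, so that these are among the few contacts whose height was measured there.

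Chromosome 15 had a site of 7 probes at 64284904 with 5.96 and 5.18 log2 units, and chromosome 8 a site of 5 probes at 59926481 with 6.69 and 5.15. Chromosome 4 had sites of 4 probes at 97950785 (4.66 and 4.59) and 150928037 (5.51 and 4.87), the first with an SD between arrays of 0.047 log2 units (n = 2). At that first site 1 probe on replicate 1 and 3 on replicate 2 lay near the upper limit, so this SD does not measure replication. The site of 4 probes on chromosome 18 at 12281709 had 6.86 and 5.04. The remaining ratio-supported trans sites outside chromosome 13 had 3 probes each, on chromosomes 6 (113302835), 9 (41048891), 10 (107560551), 16 (86932140) and 19 (55745181). Their 4C signal ran from 6.25 to 6.87 on replicate 1 and from 4.69 to 5.22 on replicate 2, and most of their probes lay near the upper limit.

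**Figure D3:**
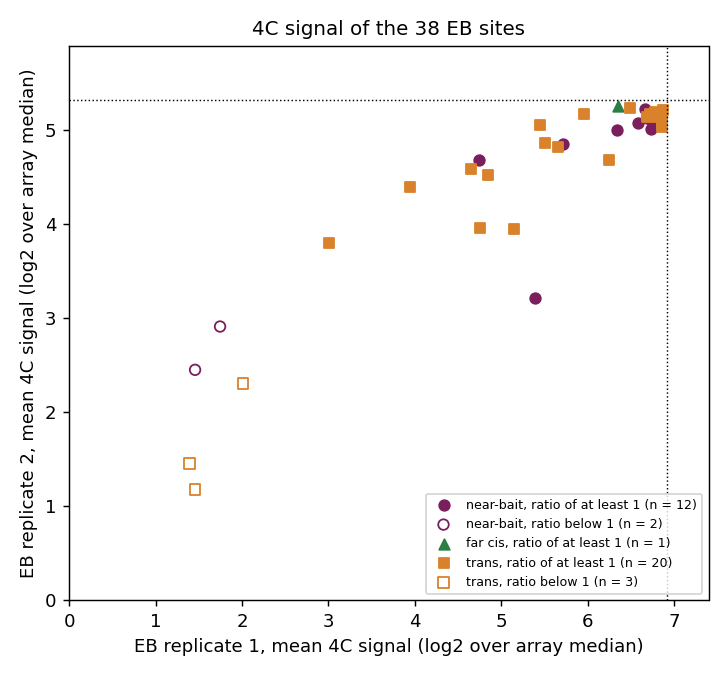
Mean 4C signal of the 38 EB sites on EB replicate 1 (x axis) and EB replicate 2 (y axis), in log2 units over the array median. Filled symbols have a ratio of 4C to input of at least 1 log2 unit on both arrays (33 sites), open symbols do not (5 sites), and dotted lines mark the upper limits of 6.92 and 5.32; most filled symbols crowd into the corner under both limits.

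Chromosome 13 held 4 of the 20 trans sites within 1 neighbourhood. They started at 62894767, 63037392, 63272059 and 63416712, with 4.85, 5.45, 4.76 and 5.15 log2 units on replicate 1 and 4.52, 5.06, 3.96 and 3.95 on replicate 2. These means mix bright and dimmer probes: on replicate 1 the 4 sites had 2, 2, 1 and 2 probes near the upper limit. Each of these sites covered 450 bp and 3 to 5 probes. With a further positive probe at 63813029 (5.76 and 3.29), all 5 loci that the array carried in this span of 918 kb were positive. The span was drawn from the first to the last positive locus, so its ends were positive by construction.

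The loci without a region label showed trans contacts on more chromosomes than the sites did. In trans 51 of 2263 loci (2.25%) were positive on both EB arrays, 31 of them with 1 or 2 probes. By locus size the shares were 1.26% of 1992 loci with 1 probe, 7.14% of 84 loci with 2 probes and 10.7% of 187 loci with 3 or more. Near the bait 7 of 120 loci (5.83%) were positive. By the same sizes these were 6.25% of 32 loci, 0 of 21 and 7.46% of 67. Near-bait loci thus had the higher share only with 1 probe, and the shares over all sizes mix unlike loci. Counted by probe and not by locus, 148 of 3183 trans probes without a region label (4.65%) met the same levels on both arrays. Of the labelled trans probes, which tile long regions, 15 of 303394 (0.00494%) did. All 18 autosomes other than chromosome 7 had at least 1 positive locus, 47 of 1587 autosomal trans loci in all (2.96%). Chromosome X had 4 of 667 (0.600%), and none of the 9 on chromosome Y was positive.

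**Figure D4:**
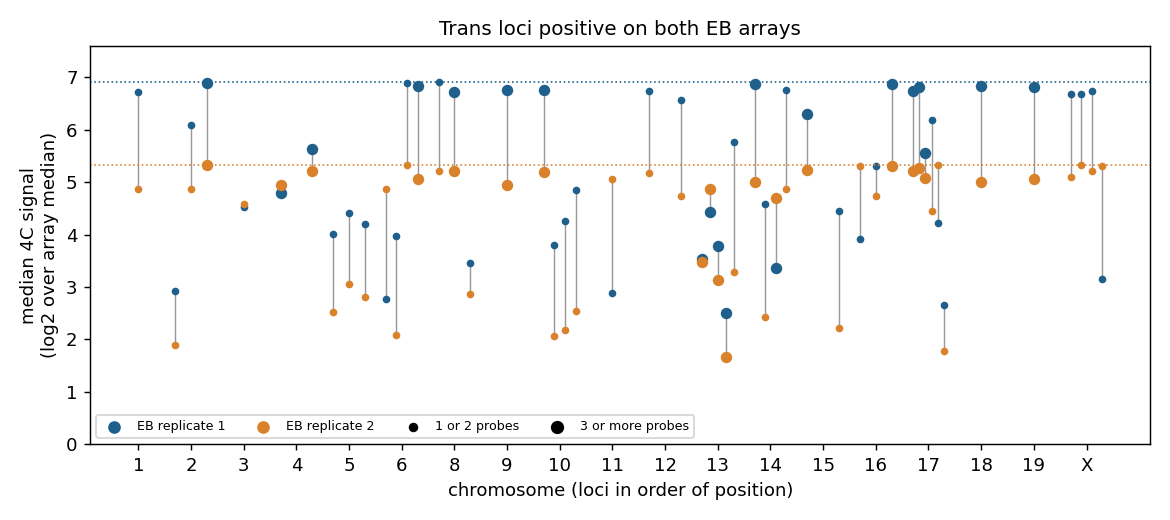
Median 4C signal (y axis, log2 units over the array median) of the 51 trans loci that were positive on both EB arrays, by chromosome (x axis). A line joins the values of EB replicate 1 and EB replicate 2 for a locus, small points are loci of 1 or 2 probes, and dotted lines are the upper limits of the arrays; the 3 loci on chromosome 5 lie between 4.02 and 4.41 on replicate 1, well below its limit.

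Several positive loci had another within 1 Mb. Outside the near-bait region 22 of 54 positive loci formed 8 such groups. How many of all loci have another locus within 1 Mb was not counted, so these groups may reflect how loci lie on the array. Each span given below ran from the first to the last positive locus. The group on chromosome 16 was 2 loci starting 516 bp apart, and on chromosome 14 only 2 of 8 loci in the span were positive. The group on chromosome X had 3 single-probe loci at 11408747, 11418843 and 11428938, spaced 10096 and 10095 bp apart, with 6.69, 6.69 and 6.75 log2 units on replicate 1 and 5.09, 5.32 and 5.22 on replicate 2. The 3 were near-equal in spacing and level, and elsewhere on chromosome X 1 locus was positive. On chromosome 10, 3 loci from 130161367 to 130214754 were spaced 27164 and 26074 bp apart, with 3.80 to 4.86 on replicate 1 and 2.06 to 2.54 on replicate 2. On chromosome 5, 3 of 4 loci from 107967498 to 108297502, spaced 163334 and 166421 bp apart, had 4.02 to 4.41 and 2.53 to 3.06. Both groups were thus of middle height and even in level within each array. Median signal within 2-fold of the upper limit was found for 31.8% of the grouped loci on replicate 1 and 50% on replicate 2, against 59.4% and 84.4% of the 32 loci that stood alone. Whether probes of a group share sequence was not tested.

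Contacts called on either EB array alone were then read on the array that had not been used to call them. Of the 39 runs of replicate 1, 38 had a mean of at least 1 log2 unit on replicate 2 (97.4%). Of the 54 runs of replicate 2, 41 had such a mean on replicate 1 (75.9%). All 33 runs of replicate 1 and all 33 runs of replicate 2 whose own mean ratio was at least 1 were positive on the other array. The runs that were missed were weak, with own means of at most 1.34 and 1.69. The bright contacts were therefore shared by the replicates, and every run that was missed had an own mean ratio below 1.

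A few sites were bright in both channels. On chromosome 15, 2 sites starting at 73003638 and 73004009 had 4C means of 1.39 and 1.46 on replicate 1 and 1.46 and 1.18 on replicate 2, but input 6.6 log2 units over the median there on replicate 1 and 5.66 and 5.69 on replicate 2. Their log2 ratios of 4C to input ran from -5.19 to -4.25. The site on chromosome 6 at 3271006 had 2.01 and 2.31 in the 4C channel and ratios of -2.10 and -1.54. These 3 were the only trans sites inside labelled regions and the only trans sites positive on both arrays of undifferentiated cells too. The same held for scattered probes: of 836 labelled trans probes positive on both EB arrays, 814 lay outside runs, and the median input of the 836 was 4.99 log2 units over the array median.

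The ratio of 4C to input was also tested across the whole array. Values were the median log2 ratio in 10 kb windows of at least 5 probes, and the EB mean was tested against the array median with limma over all 4 arrays. Of 3785 windows 642 (17.0%) were called above and 653 (17.3%) below at a Benjamini-Hochberg adjusted p under 0.05 by limma. Only 12 of the 642 had a mean of at least 2 log2 units, with the next at 1.02. Of these 12, 1 was among 217 windows near the bait, 1 among 658 in far cis and 10 among 2910 in trans, on 5 chromosomes. These counts do not compare the classes, since a short site hardly moves the median of a window with many probes. The near-bait window had 225 probes, and that on chromosome 8 from 59920001 had 5. Of 25 windows holding a site, 13 were called above. The 630 called windows with means under 2 all had input below the array median. None of these 630 had a 4C median above 0.125 on replicate 1 or 0.205 on replicate 2. Across windows the ratio and the input correlated at Pearson's r = -0.862 on replicate 1 and -0.760 on replicate 2, as a description, since the input is the denominator of the ratio.

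With the 4C channel alone limma called 12 windows (0.317%) above the median, with 219 above at an unadjusted p under 0.05, and 11 of the 12 were windows with a ratio of at least 2. With the replicate number as a block 964 windows were called above, and without EB replicate 1 only the 12 high windows were called. All 12 high windows hold sites described above.

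**Figure D5:**
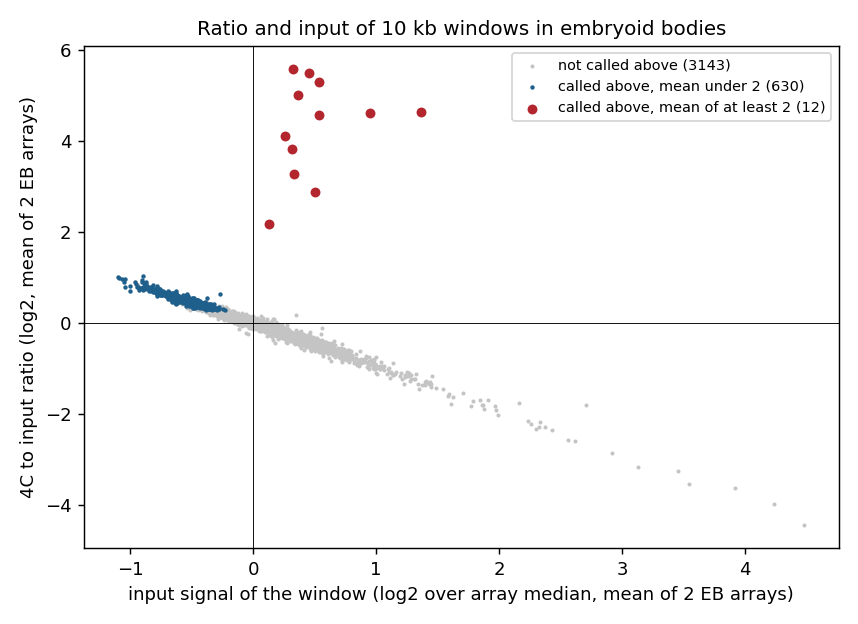
Log2 ratio of 4C to input (y axis) against input signal (x axis, log2 over the array median), both as the mean of the 2 EB arrays, for 3785 windows of 10 kb. Blue points are the 630 windows called above the array median with means under 2, all at input below the median, and red points are the 12 with means of at least 2, from 2.17 to 5.59.

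The windows with bright 4C signal are given without ranking them, since many of their probes lay near the upper limit. The window on chromosome 8 from 59920001, with all 5 probes near the limit on both arrays, had log2 ratios of 5.58 on replicate 1 and 5.59 on replicate 2 (limma adjusted p = 2.3e-06). Near the limit the spread between arrays, and so the p-value, is not that of the true signal. The spread also drew on the ES arrays, where the site in this window had 4C means of -0.017 on ES replicate 1 and 0.13 on ES replicate 2. The far cis window on chromosome 7 from 115990001 had 5.22 and 5.36 (limma adjusted p = 2.3e-06) and the window on chromosome 14 from 82390001 had 5.63 and 5.37 (limma adjusted p = 2.3e-06). The near-bait window from 136990001 had 4.01 and 4.21 (limma adjusted p = 0.00035). It holds the 3 sites within 5 kb of the origin.

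Trans windows on chromosome 17 from 47360001 (5.37 and 4.65) and 47030001 (4.62 and 4.66), on chromosome 15 from 64280001 (4.39 and 4.84) and on chromosome 14 from 92410001 (3.11 and 3.44) were among the 12. On chromosome 13 the windows from 63030001, 62890001, 63270001 and 63410001 had means of 4.58, 3.83, 2.87 and 2.17. For the last of these limma gave an adjusted p of 0.0044, which rose to 0.053 in the 4C channel alone and 0.10 with loess. The other named windows were of another kind. The 4 far cis windows next in rank, from 56360001, 56520001, 53170001 and 53610001 on chromosome 7, had means of 0.86 to 0.98 with 4C medians at or below 0.00029 on replicate 1. The 4 near-bait windows next in rank, from 137640001, 137160001, 137650001 and 137120001, had means of 0.54 to 0.73. Of these only the window from 137120001 holds sites, the weak pair at 132 kb.

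For the tiled regions taken whole, limma placed 1 of 123 (0.813%) above the array median and 11 (8.94%) below in embryoid bodies. The region called above lay on chromosome 4 from 108592666 to 108632785, with log2 ratios of 0.40 and 0.25 (limma adjusted p = 0.042), and it held no run. With the replicate block 48 regions were called above and 32 below. The distal region of chromosome 7 ranked 96th of 123, with -0.24 and -0.064 (limma adjusted p = 0.14). Windows near the bait had a median input of 0.21 log2 units over the array median, and 24.0% of them were called below; the part of the input in this rank was not tested. Neither EB array had a run in 14 of the 25 other large regions (800 kb or longer), and of the 97 small regions all 97 had none. After the distal region the large regions with the most run probes were on chromosome 15 from 72432602 (11 on replicate 1 and 10 on replicate 2), chromosome 6 from 3239918 (3 and 10) and chromosome X from 67475005 (4 and 9). The chromosome 6 region had 8 probes positive on both arrays with a ratio of at least 1, and the other two had 0.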

How the data were processed

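Probe intensity was extracted by the submitters with NimbleScan (2.3.78 for replicate 1, 2.3.18 for replicate 2), per the file headers. No source used here states whether the deposited intensity was background corrected. Channels were matched by X and Y on each array of 389359 spots. The 1193 random controls were left out, and 97 spots sharing a position with another were averaged, leaving 388069 tiling probes. Log2 values were centred on each array's tiling median. The members, lists and rules were chosen with earlier results of these data known.

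Windows and regions were tested two-sided with limma 3.58.1 and Benjamini-Hochberg adjustment in a group means model over 4 arrays, in R 4.3.3. Sites and loci, computed in Python 3.11.15 with pandas 2.3.3, have no test. Named were up to 15 sites per class by probe number, the 5 near-bait, 5 far cis and 10 trans windows of highest ratio past the threshold, called regions, and the 3 large regions with most run probes besides the distal one. The remaining trans sites, and the loci, were named after their values were seen. On simulated windows (EB against 0, 3785 windows) limma recovered 23 of 50 shifts of 0.5 log2 units, 43 of 50 of 1 and 50 of 50 of 2, with 6 false calls. The simulated noise was independent between arrays and had no link to input or scan batch. Its false calls therefore cannot speak for real windows called at input below the median.

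Both arrays of a replicate number share a NimbleScan version and a day, per the file headers, so the number pairs arrays as a scan batch. Over the 2 replicate 1 arrays, departures from the group mean had a correlation of 0.317 over windows and 0.755 over regions. Each batch holds 1 EB array, whose values are given one by one. P-values measure only the spread between these arrays. Alternatives were normexp (offset 50), loess, leaving out the dimmest 20% of input, the 4C channel alone, the replicate block, other windows, thresholds and gaps, and leaving out each array.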

Additional observations from a re-analysis of the deposited data

How the results depend on the processing

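Ratio-supported sites (33) and positive loci (61), whose rules and alternatives were chosen after seeing the data, stayed within 1.5 times these counts under every alternative run except a minimum of 5 probes per run, which left 19 ratio-supported sites; without each EB array the counts were 33 for sites and 70 to 71 for loci. The count of 38 sites was more open to the rule: 83 at 0.5 log2 units, 20 with at least 5 probes and 179 with normexp, and 39 to 54 without each EB array. The near-bait share of probes in runs (1.13%) was 1.64% at 0.5 log2 units, 1.05% at 2, 4.02% with normexp and 2.52% with the ratio in place of the 4C channel, and 1.10% to 1.16% without each EB array. The chromosome 7 share of run probes (70.1%) was 47.1% at 0.5 log2 units, 74.8% at 1.5, 74.7% at 2, 81.9% with at least 5 probes, 35.6% with normexp, 50.03% with the ratio and 74.6% with both measures, and 68.4% to 71.8% without each EB array. The cause of these shifts was not tested. Runs of either EB array were positive on the other in 86.7% on average.

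Windows called above the median (642) were 964 with the replicate block, 11 with loess, 44 without dim input, 411 without dim input and centred anew, 12 in the 4C channel alone, 1258 in 5 kb and 310 in 20 kb windows, and 12 to 814 when each array was left out, 12 being without EB replicate 1. Those below (653) were 0 with loess, 1572 and 423 without dim input, 0 in the 4C channel alone, 1384 and 268 in 5 kb and 20 kb windows, and 45 to 722 when each array was left out. Regions above (1) were 48 with the block, 0 with EB arrays only, 34 with normexp, 0 with loess, 4 without dim input and centred anew, 0 in the 4C channel and 0 to 45 when each array was left out. Those below (11) were 32 with the block, 0 with EB arrays only, 17 with normexp, 0 with loess, 80 without dim input, 0 in the 4C channel and 0 to 29 when each array was left out. Leaving out an ES array gave the counts of the EB arrays alone, since the other then adds no spread. A lone array left in a group is assumed to vary like the other group.

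The 12 high windows were each called under all 13 alternatives on 10 kb windows, except the chromosome 13 window from 63410001 with loess and in the 4C channel. The replicate block changed no call among the named windows. Named windows of dim input turned negative in the 4C channel alone (chromosome 7 from 56360001 to -0.037, 56520001 to -0.095, 53170001 to -0.12, 53610001 to -0.016, 137640001 to -0.051, 137160001 to -0.0046 and 137650001 to -0.087). With loess 53170001 fell to -0.0063 and 137650001 to -0.012, and without dim input 56520001 fell to -0.36, or -0.066 centred anew. The called region of chromosome 4 fell to -0.073 without dim input. The site on chromosome 15 at 73004009 was -4.84 as a ratio. The upper limit of the scanner limits what can be said of the height of bright sites, and the 4C background what can be said of weak ones.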
